A study of Mus musculus with 10 samples.

Results

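The diacylglycerol kinases (DGKs) of the embryonic day 13.5 (e13.5) mouse cortical hem (CH) were examined, with Dgkb, which codes for the beta isozyme, first among them. The members were the 9 genes whose symbol is Dgka, Dgkb, Dgkd, Dgke, Dgkg, Dgkh, Dgki, Dgkq or Dgkz, out of 52227 genes in the count table. Dgkb was chosen by its counts in these same libraries, where it was among the genes that differed most clearly between the genotypes, so its difference is described here and not tested. The other 8 genes were taken by name as its family. Of the 9 members, 8 had enough counts to be tested (at least 10 counts in at least 3 libraries), and Dgkg had not.

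The CH is a signaling center at the dorsal midline of the telencephalon that secretes Wnt and Bmp proteins. It was laser-captured from 5 untreated wild-type embryos and 5 untreated Lmx1a-/- embryos, all at e13.5. The mutants were homozygous for drJ (dreherJ), a null germline allele of the LIM-homeodomain transcription factor gene Lmx1a, and the mice were on a mixed C57Bl6, FVB and CD1 background. Each library was made from the pooled sections of a single embryo, and the CH bounds were taken from adjacent sections stained for Lmx1a. The CH markers Lmx1a, Wnt3a, Wnt2b, Wnt8b, Wnt5a, Bmp4, Msx1, Rspo1, Rspo2 and Rspo3 were all found in the tested genes, at a summed level of 2143 to 4063 in wild-type and 2626 to 3740 in Lmx1a-/- libraries, in normalized CPM (counts scaled to libraries of equal size). Of these 10 genes, 3 were lower past the threshold used below (an FDR of 0.1), namely Msx1 (34.5 ± 11.7 and 7.94 ± 5.34 CPM), Wnt2b (151 ± 31.1 and 74.3 ± 21.01 CPM) and Wnt5a (380.1 ± 67.5 and 286 ± 20.05 CPM), 1 (Lmx1a) was higher, and 6 did not pass.

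Between 19145952 and 36462780 reads per library were counted on genes. Transcripts of Lmx1a itself, read from the drJ allele in mutants, stood at 71.2 ± 18.2 (SD, wild-type, n = 5) and 114 ± 21.0 CPM (SD, mutants, n = 5). Wild-type embryo 1 and the 5 mutants had Y-linked transcripts (341 CPM, and 384 to 451 CPM over 4 genes), while wild-type embryos 2 to 5 had at most 0.0588 CPM of them and 4399 to 5169 CPM of Xist, so that apart from wild-type embryo 1 the genotypes and the sex chromosomes cannot be told apart. Of 21664 genes tested with edgeR's quasi-likelihood test, 870 (4.02%) passed a false discovery rate (FDR) of 0.1, with 497 genes (2.29%) lower and 373 (1.72%) higher in the mutants. The 5 libraries of one genotype all lay above the 5 of the other for 961 genes (4.44%), with the mutants lower for 2.27% and higher for 2.17% of the genes tested.

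DGKs add a phosphate to diacylglycerol (DAG), a lipid that phospholipase C releases in membranes, and turn it into phosphatidic acid. This ends signaling by DAG to proteins with a C1 domain, such as protein kinase C, the Rasgrp exchange factors, the chimaerins and the Unc13 priming factors, and it opens the path by which phosphatidylinositol is rebuilt. The isozymes fall into types by their regulatory domains. Type I (alpha, beta and gamma, from Dgka, Dgkb and Dgkg) has EF hands that bind calcium. Type II (delta and eta, from Dgkd and Dgkh) has a pleckstrin homology domain and a split catalytic domain. Type III (epsilon, from Dgke) is the simplest and prefers DAG with an arachidonoyl chain. Type IV (zeta and iota, from Dgkz and Dgki) has a MARCKS-like region and ankyrin repeats, and type V (theta, from Dgkq) has an additional cysteine-rich domain. Dgkb is best known from neurons of the adult brain, above all in the striatum.

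Dgkb (ENSMUSG00000036095) lies on the plus strand of chromosome 12 of GRCm38, at chr12:37817726-38634239. With 816514 bases it was the longest gene of the family, with 8 annotated transcripts whose joined exons cover 11377 bases, and no exon of another gene overlapped them. RefSeq places 1 start of Dgkb inside this span, and the 250 bases before it, chr12:37879924-37880173, fall in an intron of the longer transcripts. This window is shown because Dgkb is the member with the largest difference between the genotypes, and beside it the window before the start of Dgkd, chr1:87853037-87853286, where no gene is annotated, because Dgkd is the other member whose level was higher in every mutant. Both are written 5′ to 3′ on the plus strand of RefSeq GRCm38.p6, and capitals mark GGGCGG or its complement CCGCCC, the GC box.
Dgkb: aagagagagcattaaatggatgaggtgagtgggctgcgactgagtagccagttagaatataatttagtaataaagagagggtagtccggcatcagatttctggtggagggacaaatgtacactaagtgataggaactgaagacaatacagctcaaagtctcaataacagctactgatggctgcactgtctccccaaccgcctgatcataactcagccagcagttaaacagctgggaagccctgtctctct
Dgkd: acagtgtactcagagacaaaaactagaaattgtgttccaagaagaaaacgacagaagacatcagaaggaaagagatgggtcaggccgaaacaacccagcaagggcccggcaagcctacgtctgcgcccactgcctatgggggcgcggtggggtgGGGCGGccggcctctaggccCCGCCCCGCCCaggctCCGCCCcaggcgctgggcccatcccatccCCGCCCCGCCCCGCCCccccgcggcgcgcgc

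The windows differed in base composition. The Dgkb window had 45.6% G and C and 3 CpG sites, and the Dgkd window had 67.2% and 21 CpG sites, beside medians of 52.4% and 6 over all 32851 RefSeq windows of this length. GGGCGG, searched on both strands with overlapping matches allowed, was found 7 times in the Dgkd window, between 96 and 21 bases before the start, and not in the Dgkb window. It was present in 10 of 15 windows of the 9 members and in 32.7% of all windows. TAATTA, a core that many homeodomain proteins bind and that is its own complement, was present in 1 of 15 member windows, 1 of the 4 of Dgka, and in 4.84% of all windows. TATAAA, with its complement TTTATA, was also present in 1 of 15, again of Dgka, and in 12.4% of all windows. These are matches of letters, and binding was not measured.

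Dgkb transcripts were 2.93 times as abundant in Lmx1a-/- CH as in wild-type CH. Wild-type embryos 1 to 5 had 10.6, 9.56, 10.4, 9.34 and 12.6 CPM. Lmx1a-/- embryos 1 to 5 had 32.7, 37.6, 26.5, 24.8 and 32.1 CPM. The genotypes did not overlap, and the lowest mutant, embryo 4, lay 12.2 CPM above the highest wild-type embryo. The means were 10.5 ± 1.29 and 30.8 ± 5.14 CPM (SD, n = 5 embryos each), and the log2 fold change of the fit across all genes was 1.55 (SE 0.14). These levels rest on 180 to 352 counts per wild-type library and 692 to 984 counts per mutant library. The spread between embryos was similar in relative terms, with an SD of 12.3% of the mean in wild-type and 16.7% in Lmx1a-/- CH. In such bulk libraries, a change in the number of cells that express Dgkb and a change in its transcripts per cell cannot be told apart.

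**Figure D1:**
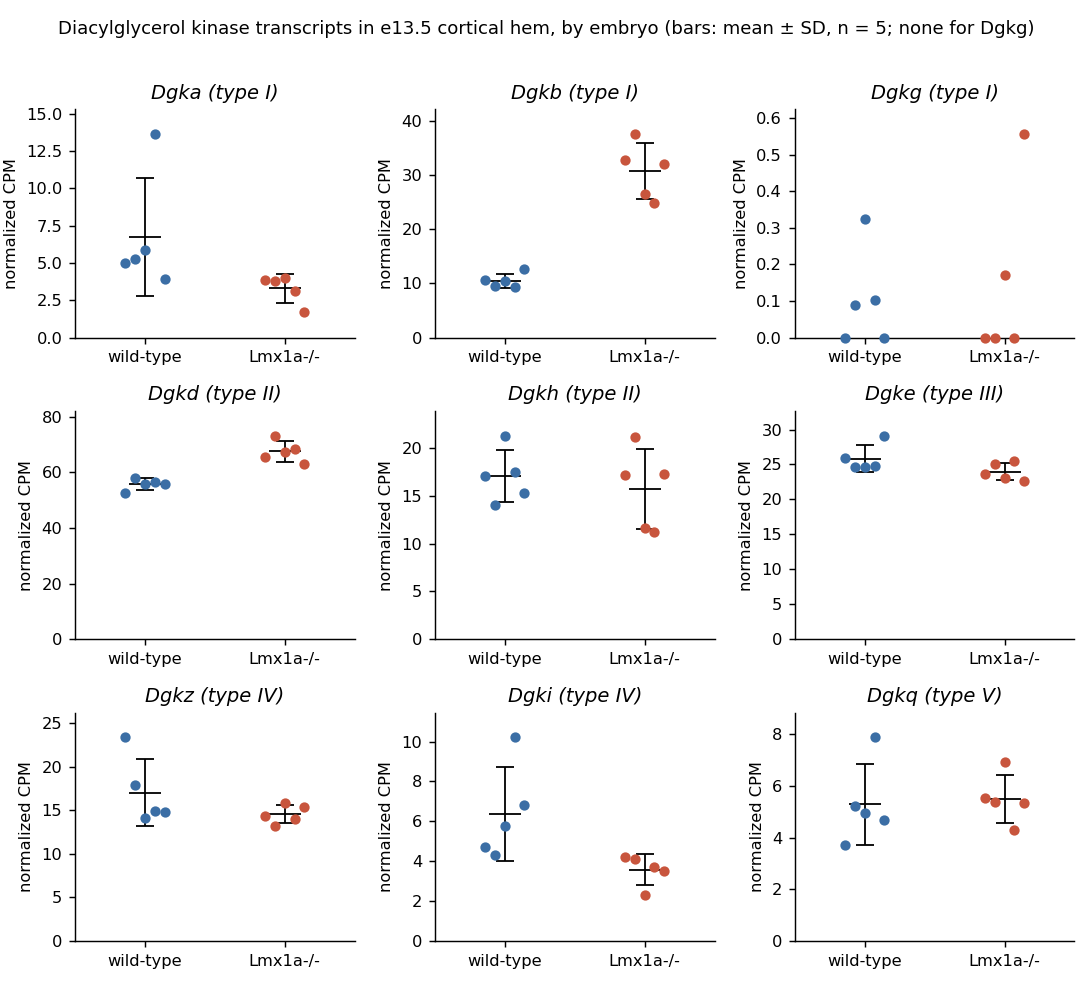
Normalized CPM of each DGK gene (vertical axes from 0, each with its own scale) in the CH of 5 wild-type (blue) and 5 Lmx1a-/- (red) embryos, 1 point per embryo, with mean ± SD except for Dgkg. For Dgkb the mutants (24.8 to 37.6 CPM) all lie above the wild-type embryos (9.34 to 12.6 CPM), Dgkd shows a smaller gap, and wild-type embryo 4 stands alone at the top for Dgka (13.6 CPM) and Dgki (10.2 CPM).

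The other 8 members did not move together. Of the 7 that were tested, 1 (Dgkd) passed the threshold and was higher in mutants, none was lower, and 6 did not pass, beside 4.02% of all genes tested. At an unadjusted p under 0.05, 3 of the 7 (Dgkd, Dgka and Dgki) counted, beside 16.4% of all genes tested. Their mean was lower in mutants for 5 and higher for 2, with a median log2 fold change of -0.13 beside -0.0049 over all genes tested. The genotypes did not overlap for 2 of the 7 (Dgkd, higher, and Dgki, lower), beside 2.17% and 2.27% of all genes tested in these directions.

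Of the other type I genes, Dgka did not follow Dgkb, and Dgkg was too low to tell. Dgka (ENSMUSG00000025357, chr10:128720134-128744855, minus strand), an isozyme best known from lymphocytes, had 5.00, 5.28, 5.85, 13.6 and 3.92 CPM in wild-type embryos 1 to 5. It had 3.82, 3.80, 4.02, 3.13 and 1.70 CPM in Lmx1a-/- embryos 1 to 5. Wild-type embryo 4 was more than 2 times as high as any other embryo, and the genotypes overlapped at wild-type embryo 5. The log2 fold change was -1.03 (SE 0.35, edgeR FDR = 0.154), and -0.61 without wild-type embryo 4. The 7 lymphocyte markers summed to 1.70 to 5.61 CPM, most of it from Lck at 1.63 to 4.85 CPM, which is near the level of Dgka in the mutants and overlapped between the genotypes. Cd3e was at 0 in every library, and the 5 others had too few counts to be tested. The part of such cells in the level of Dgka was not tested.

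Dgkg (ENSMUSG00000022861, chr16:22468461-22657221, minus strand), the gamma isozyme known from cerebellar Purkinje cells, was barely detected. Wild-type embryos 1 to 5 had 0, 2, 11, 2 and 0 counts, and Lmx1a-/- embryos 1 to 5 had 0, 0, 5, 0 and 16 counts. No order between the genotypes can be read from them, since in 7 of the 10 libraries the count was under the 3 counts that a count of 0 allows (0.0831 to 0.163 CPM per library, for counting error only).

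Dgkd (ENSMUSG00000070738, chr1:87853287-87945180, plus strand), a type II enzyme that acts at membranes and endosomes, rose slightly. Wild-type embryos 1 to 5 had 52.5, 58.0, 55.9, 56.6 and 55.8 CPM. Lmx1a-/- embryos 1 to 5 had 65.6, 73.2, 67.1, 68.5 and 63 CPM. The highest wild-type embryo was 4.96 CPM below the lowest mutant, in the gene with the smallest relative spread of the family (SD 3.62% and 5.63% of the mean). The means were 55.8 ± 2.02 and 67.5 ± 3.80 CPM, with a log2 fold change of 0.28 (SE 0.071, edgeR FDR = 0.0695). The call was close to the threshold. It was kept in 3 of the 10 fits that left out 1 embryo (FDR 0.0739 to 0.151 over the 10 fits), and it was lost without any of wild-type embryos 1 to 5 and without Lmx1a-/- embryos 2 or 4. With Xist or the choroid plexus markers as a covariate, both of which follow the genotype, the log2 fold change was 0.35 and 0.22 (edgeR FDR = 0.42 and 0.592). Its exons share 62 bases with Usp40 and 110 bases with Gm19582 on the opposite strand, and Usp40 was at 87.8 ± 3.21 and 87.7 ± 8.03 CPM.

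Dgkh (ENSMUSG00000034731, chr14:78558750-78732776, minus strand), another type II gene, ranged widely in both genotypes. Wild-type embryos 1 to 5 had 17.1, 14.1, 21.3, 17.5 and 15.3 CPM. Lmx1a-/- embryos 1 to 5 had 17.2, 21.1, 11.6, 11.2 and 17.2 CPM. Mutant embryos 3 and 4 lay below every wild-type embryo and mutant embryo 2 near the top. The log2 fold change was -0.13 (SE 0.18, edgeR FDR = 0.795).

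Dgke (ENSMUSG00000000276, chr11:89035179-89066850, minus strand), the type III gene, had 25.9, 24.6, 24.7, 24.8 and 29.1 CPM in wild-type embryos 1 to 5. It had 23.7, 25.0, 23.0, 25.5 and 22.6 CPM in Lmx1a-/- embryos 1 to 5. The genotypes overlapped, with wild-type embryo 5 the highest, and the log2 fold change was -0.11 (SE 0.093, edgeR FDR = 0.615).

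Both type IV genes had lower means in the mutants, but neither passed the threshold. Dgki (ENSMUSG00000038665, chr6:36846022-37300184, minus strand) had 4.70, 4.33, 5.76, 10.2 and 6.80 CPM in wild-type embryos 1 to 5. It had 4.19, 4.13, 2.28, 3.71 and 3.51 CPM in Lmx1a-/- embryos 1 to 5. The genotypes were separated by 0.14 CPM, and wild-type embryo 4 was again the highest. The log2 fold change was -0.83 (SE 0.27, edgeR FDR = 0.131), and -0.61 without wild-type embryo 4. Dgkz (ENSMUSG00000040479, chr2:91932824-91975864, minus strand), whose product is also found in the nucleus, had 23.4, 17.9, 14.1, 14.9 and 14.8 CPM in wild-type embryos 1 to 5. It had 14.4, 13.2, 15.9, 14 and 15.4 CPM in Lmx1a-/- embryos 1 to 5. Only wild-type embryos 1 and 2 lay above the mutants, and the log2 fold change was -0.23 (SE 0.15, edgeR FDR = 0.496).

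Dgkq (ENSMUSG00000004815, chr5:108646693-108669672, minus strand), the type V gene, had 3.7, 5.23, 4.94, 7.89 and 4.69 CPM in wild-type embryos 1 to 5. It had 5.52, 5.38, 6.92, 4.29 and 5.36 CPM in Lmx1a-/- embryos 1 to 5. The genotypes overlapped throughout, and the log2 fold change was 0.057 (SE 0.22, edgeR FDR = 0.933). Dgkq shares 2090 exon bases with Tmem175 and 124 with Idua on the opposite strand. The strand setting of the counting is not given in the sources used here, so reads of Dgkq and these genes may not have been told apart. Tmem175 stood at 8.10 to 15.9 CPM and Idua at 4.05 to 7.20 CPM.

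Levels of different genes were compared per length, as CPM divided by the length of the joined exons in kilobases (FPKM). The order covers the members only, and Dgkk, a further DGK gene, was not placed in it. Dgkd, at 8.14 ± 0.294 FPKM, was the leading family transcript of the wild-type CH. It was followed by Dgke at 3.08 ± 0.231, Dgkz at 2.72 ± 0.612 and Dgka at 1.42 ± 0.824 FPKM (SD, n = 5). Below them came Dgki at 1.02 ± 0.379, Dgkh at 1.00 ± 0.162, Dgkb at 0.923 ± 0.113, Dgkq at 0.736 ± 0.217 and Dgkg at 0.0112 FPKM (SD, n = 5). Among neighbours in this order, only Dgkd and Dgke, and Dgkq and Dgkg, were separated in every wild-type library without overlap of their ranges, so the places from Dgke to Dgkq are not resolved between neighbours.

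In Lmx1a-/- CH, Dgkb moved from place 7 to place 3 among the members. The order began with Dgkd (9.85 ± 0.555 FPKM), Dgke (2.86 ± 0.150), Dgkb (2.7 ± 0.452) and Dgkz (2.33 ± 0.171). The lower places were held by Dgkh (0.923 ± 0.247), Dgkq (0.764 ± 0.130), Dgka (0.692 ± 0.200), Dgki (0.571 ± 0.124) and Dgkg (0.0157). Dgkb overlapped its neighbours Dgke and Dgkz, and the steps without overlap were those from Dgkd to Dgke, from Dgkz to Dgkh and from Dgki to Dgkg. The length used matters for these places. With coding length, Dgkb was at place 4 in wild-type and 3 in Lmx1a-/- CH and Dgke was ahead of Dgkd in wild-type CH, and with the longest transcript Dgkb was at places 5 and 2.

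**Figure D2:**
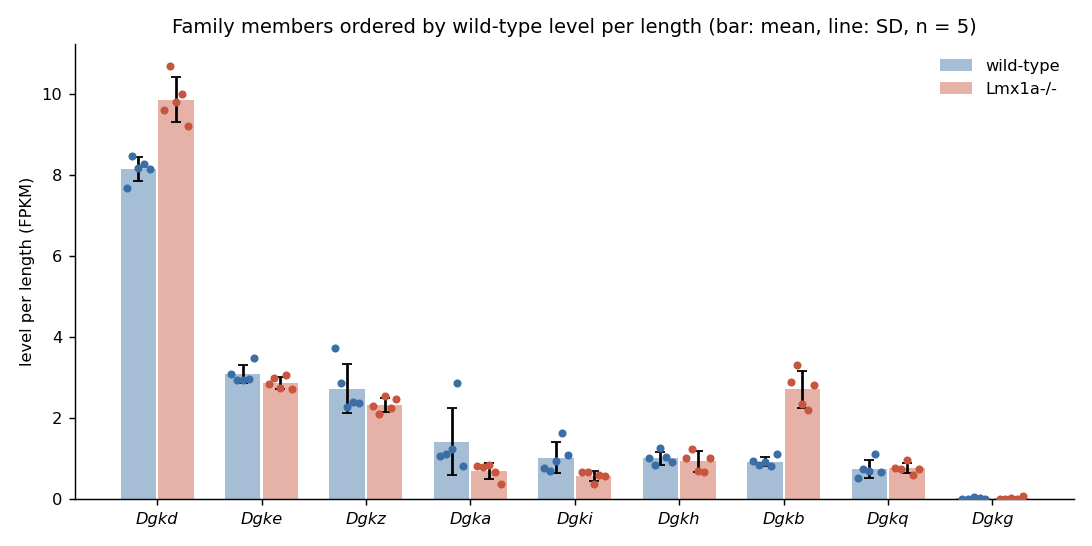
Level per length (FPKM, linear axis from 0) of the 9 DGK genes, ordered by their wild-type mean, with bars for the mean, black lines for the SD and 1 point per embryo (n = 5 per genotype, wild-type blue, Lmx1a-/- red). Dgkd leads in both genotypes (8.14 and 9.85 FPKM), and Dgkb rises from 0.923 to 2.7 FPKM, next to Dgke and Dgkz.

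The summed level of the 9 members, without Dgkk, overlapped between the genotypes at wild-type embryo 4 alone. It stood at 18.4 to 21.1 FPKM in wild-type and 19.9 to 22.5 FPKM in Lmx1a-/- libraries, with the other 4 wild-type embryos at 18.4 to 18.8 FPKM, and the 8 genes without Dgkb at 17.5 to 20.2 and 17.1 to 19.2 FPKM. Per joined exon length, Dgkb made up 3.90 to 5.97% of the summed level in wild-type and 10.9 to 14.7% in Lmx1a-/- CH, while Dgkd made up 39.2 to 45.9% and 46.0 to 50.1%. The shares and sums given here hold for this length only. With coding length, the mean of Dgkb was larger relative to that of Dgkd in both genotypes, and Dgke was ahead of Dgkd in wild-type CH. Shares with other lengths were not computed. By type, the summed level of the members did not overlap for type II (Dgkd and Dgkh), which was 8.67 to 9.41 FPKM in wild-type and 10.2 to 11.9 FPKM in Lmx1a-/- libraries, nor for type IV, which was 3.18 to 4.49 and 2.77 to 3.02 FPKM. These sums were not tested. Most of type II was Dgkd, which alone stood at 7.67 to 8.47 and 9.19 to 10.7 FPKM, and no type IV gene passed the threshold. Type I overlapped (1.93 to 3.7 and 2.84 to 4.10 FPKM), with wild-type embryo 4 and its high Dgka the only wild-type embryo within the range of the mutants.

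The genes that make, use or recycle DAG and phosphatidic acid were counted next. The list also held genes of Gq-class proteins upstream of phospholipase C, and 4 related kinases with other substrates. Of 83 listed genes, 81 were tested, 4 (4.94%) were lower in Lmx1a-/- CH, beside 2.29% of all genes, and 4 (4.94%) were higher, beside 1.72% of all genes. The other 73 did not pass. The log2 fold change was negative for 40 and positive for 41, with a median of 0.019.

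Among the 12 tested phospholipase C genes, which produce DAG, 2 rose and 1 fell. Plce1, whose product is controlled by Ras, had 106, 112, 117, 111 and 139.5 CPM in wild-type embryos 1 to 5 and 164, 177, 185, 189 and 194 CPM in Lmx1a-/- embryos 1 to 5. It did not overlap between the genotypes, and the log2 fold change was 0.64 (SE 0.084, edgeR FDR = 0.00187). Plcb4, which Gq proteins activate, went from 48.9 ± 2.84 to 60.7 ± 5.77 CPM with an overlap of 1 mutant (log2 fold change 0.31, SE 0.085, edgeR FDR = 0.0836). Plch2, a phospholipase C of the nervous system, was low throughout and fell from 3.78 ± 2.54 to 1.02 ± 0.466 CPM (log2 fold change -1.89, SE 0.46, edgeR FDR = 0.0513). Wild-type embryo 4 was the highest for Plch2, and without it the log2 fold change was -1.40 (FDR = 0.11). Without Lmx1a-/- embryo 4 the FDR of Plch2 was 0.108. None of the 3 tested Gq-class genes upstream passed, with Gnaq at 143 ± 6.65 and 151 ± 7.57 CPM having the smallest p (edgeR FDR = 0.608).

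Of the 23 genes listed as DAG effectors and their relatives, 1 rose and 1 fell, and 21 did not pass. Unc13b, a C1 domain protein that primes vesicles for release, had 117, 111, 118, 86.9 and 112 CPM in wild-type embryos 1 to 5 and 177, 166, 162, 172 and 172 CPM in Lmx1a-/- embryos 1 to 5. It did not overlap (log2 fold change 0.64, SE 0.085, edgeR FDR = 0.00183). Chn2, the beta-chimaerin that switches off Rac, had 57.5, 35.5, 37.5, 49.1 and 43.9 CPM in wild-type embryos 1 to 5 and 26.7, 22.8, 23.3, 24.5 and 28.8 CPM in Lmx1a-/- embryos 1 to 5. It did not overlap either (log2 fold change -0.83, SE 0.13, edgeR FDR = 0.00593). The protein kinase C, protein kinase D, Rasgrp and Trpc genes of the list are among those that did not pass.

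Among the 14 genes that make or dephosphorylate phosphatidic acid, 1 rose and 1 fell. Plpp3, a phosphatase that turns phosphatidic acid back into DAG, rose from 41.2 ± 8.41 to 67.6 ± 6.62 CPM and did not overlap (log2 fold change 0.71, SE 0.13, edgeR FDR = 0.0118). Agpat1, an acyltransferase that makes phosphatidic acid anew, fell from 42.9 ± 6.05 to 31.8 ± 3.72 CPM with overlap (log2 fold change -0.43, SE 0.12, edgeR FDR = 0.0776). Of the 16 genes of phosphatidylinositol resynthesis 1 fell, the phosphatidylinositol transfer protein gene Pitpnm2, from 40.1 ± 7.46 to 26.2 ± 6.02 CPM with overlap (log2 fold change -0.61, SE 0.16, edgeR FDR = 0.0744).

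None of the 9 other genes for enzymes that consume DAG or its breakdown products passed, nor did any of the 4 related kinases. The smallest p among the first belonged to Chpt1, a choline phosphotransferase, at 19.8 ± 2.52 and 23.7 ± 2.75 CPM (edgeR FDR = 0.317), and among the others to the ceramide kinase gene Cerk, at 7.83 ± 1.77 and 9.64 ± 1.34 CPM (edgeR FDR = 0.455). Dgkk, the kappa isozyme on the X chromosome and of type II, had 4.31 to 10.8 CPM in wild-type and 6.09 to 10.4 CPM in Lmx1a-/- libraries (edgeR FDR = 0.562). Of the 8 genes that passed, Unc13b, Plce1, Plpp3 and Chn2 did so in all 10 fits without 1 embryo, while Plch2, Agpat1, Pitpnm2 and Plcb4 did so in 8, 3, 3 and 2 of them. With Xist as a covariate Chn2 alone of the 8 passed (edgeR FDR = 0.0513), and with the choroid plexus markers as a covariate none of the 8 did, while 0.143% and 0.212% of all genes passed in these fits.

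**Figure D3:**
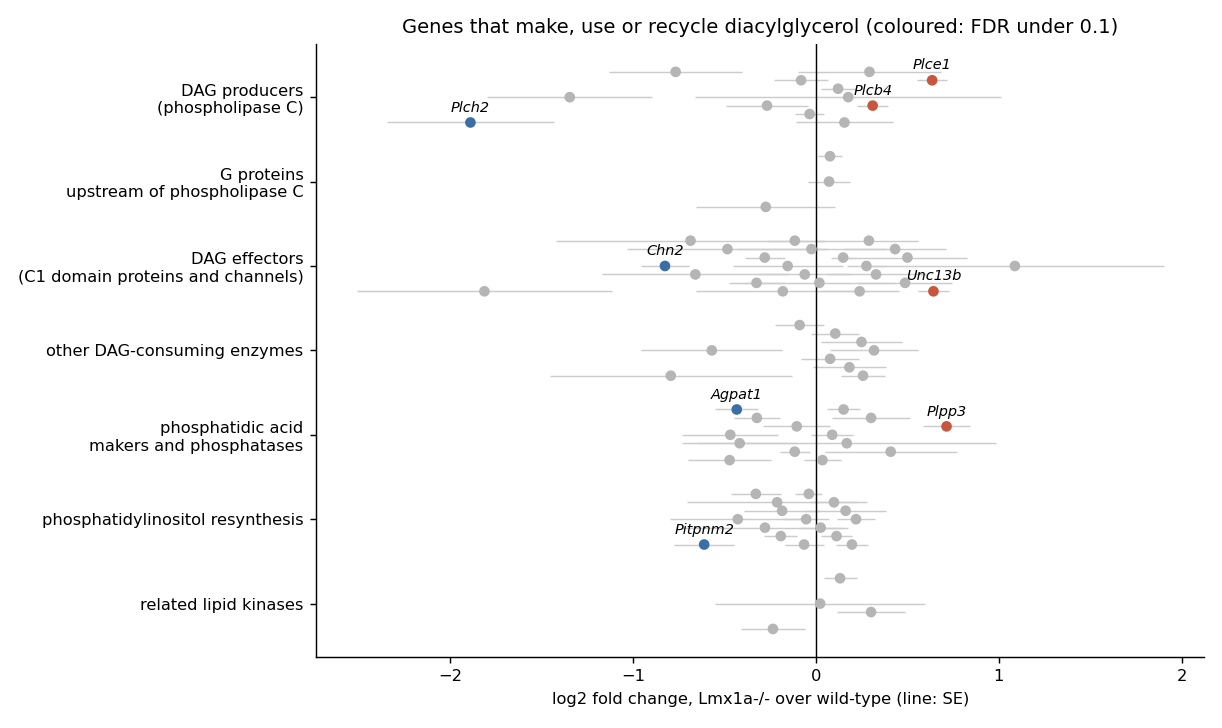
Log2 fold change (Lmx1a-/- over wild-type, line: SE) of the 81 tested genes of the DAG lists, 1 row of points per list. The lists hold genes that make, use or recycle DAG, Gq-class genes upstream and related kinases. Genes past an FDR of 0.1 are in red (higher) or blue (lower) and named, and the rest are in grey. The 4 higher and 4 lower genes are spread over 4 of the 7 lists, and 73 genes in grey lie on both sides of 0.

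The genes whose pattern over the 10 libraries was most like that of Dgkb were Fezf2, Gm48542, Gm33869, Ccn2 and Mmp17. Likeness was the root mean square difference of log2 CPM over the 10 libraries after each gene was centred on its mean, which was 0.23, 0.24, 0.24, 0.27 and 0.29 for these genes and 0.89 for the median gene. Since both genotypes enter this measure, genes with a similar difference between the genotypes rank high by construction. Fezf2, a transcription factor of forebrain progenitors and of deep-layer projection neurons, went from 88.3 ± 11.6 to 212 ± 28.1 CPM. Ccn2, a secreted matricellular protein, went from 7.71 ± 1.20 to 17.5 ± 0.857 CPM, and Mmp17, a membrane-anchored metalloprotease, from 4.81 ± 0.944 to 10.8 ± 2.36 CPM. The unnamed transcripts Gm48542 and Gm33869 went from 25.3 ± 4.33 to 53.7 ± 9.30 and from 13.8 ± 2.14 to 30.03 ± 6.75 CPM. Within the mutants, embryo 2 was highest for Dgkb, Gm48542 and Gm33869, and within the wild-type embryos, embryo 4 was lowest for Dgkb and for all 5 of these genes. The measure also selects for such shared highs and lows within a genotype, so they are no separate observation.

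**Figure D4:**
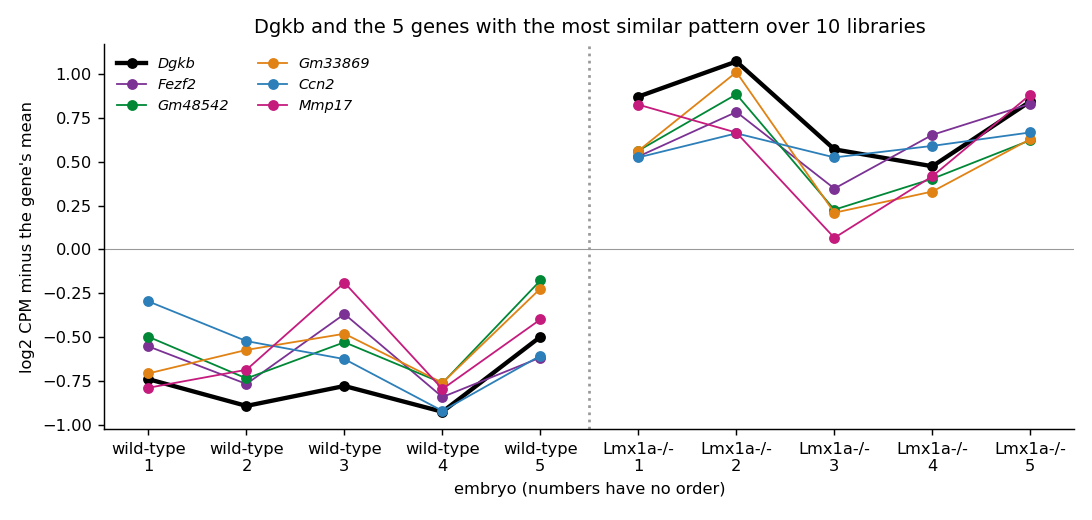
Log2 CPM of Dgkb (black, thick) and of the 5 genes with the most similar pattern, each minus its own mean over the 10 libraries (vertical axis), for each embryo (horizontal axis, numbers without order, lines join the points of a gene within a genotype). All 6 genes lie below 0 in the 5 wild-type embryos and above 0 in the 5 Lmx1a-/- embryos.

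Markers of other cells that the captured tissue could hold were set beside Dgkb. The markers of cortical neuroepithelium, the tissue next to the CH, stood higher in the mutants. Their summed level over 8 genes was 486 to 861 CPM in wild-type and 889 to 1149 CPM in Lmx1a-/- libraries, without overlap. Of the 8 genes, 3 were higher past the threshold (Emx2, Fezf2 and Dmrt3) and none was lower. The lack of overlap rests on Fezf2, the gene most like Dgkb by the measure above. Fezf2 was at 105 CPM in wild-type embryo 3 and 173 CPM in Lmx1a-/- embryo 3, a larger step than that between the sums of these embryos. The nearest embryos on this scale were wild-type embryo 3 (861 CPM) and Lmx1a-/- embryo 3 (889 CPM), and they had 10.4 and 26.5 CPM of Dgkb. The part of these cells in the level of Dgkb was not tested.

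The neuronal lists overlapped between the genotypes. The sum over 8 general neuron markers was 756 to 1163 CPM in wild-type and 849 to 1312 CPM in Lmx1a-/- libraries, with no gene past the threshold in either direction. The striatal and GABAergic list stood at 53.3 to 96.8 and 72.3 to 207 CPM, with 1 of 10 genes (Dlx5) higher. Its markers of mature striatal neurons were close to 0, with Drd1 at no more than 0.411 CPM, Drd2 at no more than 0.635 CPM and Adora2a at no more than 1.71 CPM in any library. Lmx1a-/- embryo 5 had the highest sum of this list (207 CPM) and 32.1 CPM of Dgkb, and Lmx1a-/- embryo 2 with the highest Dgkb had 80.1 CPM. Cortical projection neuron markers were at 259 to 466 and 287 to 386 CPM, with 1 of 7 (Sox5) higher.

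Markers of the choroid plexus epithelium and of Cajal-Retzius cells, which border on or arise from the CH, held genes that fell. The choroid plexus sum over 12 genes was 123 to 473 CPM in wild-type and 151 to 221 CPM in Lmx1a-/- libraries, with 3 genes lower (Ttr, Slc4a5 and Calml4). Wild-type embryo 3, which had the lowest sum of all 10 libraries (123 CPM), had 10.4 CPM of Dgkb, within the range of the other wild-type embryos. The Cajal-Retzius sum over 8 genes was 309 to 509 and 212 to 304 CPM, without overlap, with 3 lower (Reln, Trp73 and Lhx1) and 1 higher (Lhx5). Red cell markers were at 632 to 1473 and 267 to 573 CPM, also without overlap. The sums that overlapped were 22.1 to 78.1 and 19.1 to 57.5 CPM for endothelium, 12.6 to 31.1 and 17.6 to 28.1 CPM for microglia, and 316 to 906 and 244 to 507 CPM for mesenchyme and meninges. Of the 8 mesenchyme and meninges genes 2 were lower past the threshold, Dcn (41.3 ± 13.4 and 24.4 ± 2.74 CPM, edgeR FDR = 0.074) and Lum (41.02 ± 11.9 and 19.7 ± 8.85 CPM, edgeR FDR = 0.0619). The part of these cells in the level of Dgkb was not tested.

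The sex chromosomes were set beside Dgkb in the same way. Wild-type embryo 1 was the only wild-type library with Y-linked transcripts, and it had 10.6 CPM of Dgkb, within the 9.34 to 12.6 CPM of the other wild-type embryos and below the 24.8 to 37.6 CPM of the mutants. In the 6 libraries with Y-linked transcripts alone, 1 of them wild-type, the log2 fold change of Dgkb was 1.52 (SE 0.27). For Dgkd, wild-type embryo 1 had the lowest level of all 10 libraries (52.5 CPM). The log2 fold change of Dgkd in the same 6 libraries was 0.36 (SE 0.15), with the lone wild-type library assumed to vary as the mutants did. Both comparisons rest on this 1 wild-type library, and the part of the sex chromosomes in the levels of Dgkb and Dgkd was not tested.

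**Figure D5:**
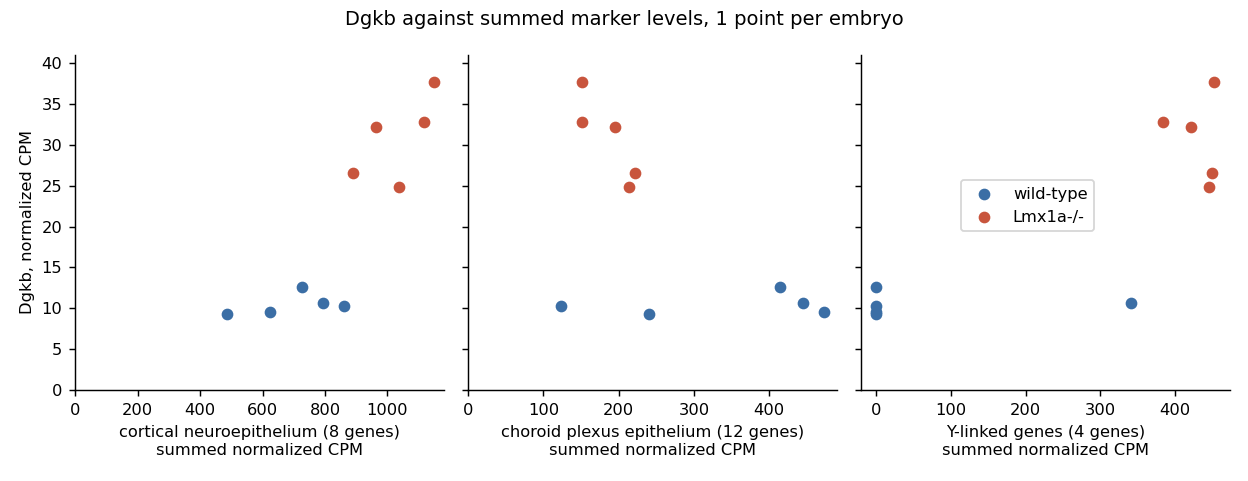
Dgkb (normalized CPM, vertical axis from 0) against the summed CPM of the cortical neuroepithelium (left), choroid plexus epithelium (middle) and Y-linked (right) genes, 1 point per embryo (wild-type blue, Lmx1a-/- red). The wild-type embryo with the lowest choroid plexus sum (123 CPM) and the one with Y-linked transcripts (341 CPM) had 10.4 and 10.6 CPM of Dgkb. Each of these is a single library, and the part of these cells or of sex in the level of Dgkb was not tested.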

How the data were processed

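Laser-captured CH from 10 embryos, 5 of each genotype, was sequenced after PicoPure RNA isolation and SMARTER mRNA library preparation. The values are read counts per gene, which the authors made with Trimmomatic, STAR 2.7.1a (GRCm38, Ensembl) and HTSeq 0.11.2 and deposited without normalization. How strand was set is not given in the sources used here. The table has 52508 rows, all naming a gene, and 281 exact repeats were dropped. Libraries held 19145952 to 36462780 counts. Genotype and embryo number came from the labels.

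Genes that reached 10 counts in 3 or more libraries were compared in all 10 libraries, without a covariate, with edgeR 4.0.16 (R 4.3.3), using TMM scaling, the quasi-likelihood test and Benjamini-Hochberg FDR over all 21664 genes. SEs were computed as the absolute log2 fold change over the square root of F. Normalized CPM are TMM-scaled counts, and FPKM divide them by the joined exon length of GENCODE M21. Patterns used log2 CPM with a prior count of 2. Alternatives were other scalings, filters and tests (edgeR's likelihood ratio test, DESeq2 1.42.0), robust dispersions, a block for the embryo number, Xist or choroid plexus markers as covariates, subsets of libraries, an FDR of 0.05 and other gene lengths.

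The members and lists were chosen with earlier results of these data known. The genes named are the members, Lmx1a, pathway genes past an FDR of 0.1 or with the smallest p of their list, the 5 genes most like Dgkb, and markers. Of the markers, those past the FDR, those at 0, Lck and those of mature striatal neurons are named, and these, Plcb1, Dgkk and the genes that overlap members on the other strand, were named after their values were seen. RefSeq promoter windows matched 9 of 9 members.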

Additional observations from a re-analysis of the deposited data

Results flagged for a closer look

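Within the groups of 5 embryos, 3 of 54 sets of values (27 genes in both genotypes) held an embryo that stood apart from the other 4, with a gap to its nearest neighbour of over 0.71 of the whole range. Chance gives about 1 such value in 20 sets. Dgka was at 13.6 CPM in wild-type embryo 4, beside 3.92 to 5.85 CPM in the other wild-type embryos. Plch2 was at 8.20 CPM in wild-type embryo 4, beside 1.72 to 3.20 CPM in the others. Unc13b was at 86.9 CPM in wild-type embryo 4, beside 110.6 to 118 CPM in the others. All 3 values belong to the same library, whose Dgkb level of 9.34 CPM was the lowest of the 10 libraries, beside 9.56 CPM in the next wild-type embryo.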

How the results depend on the processing

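The log2 fold change of Dgkb kept its direction in all 22 alternatives, at 1.46 to 1.62 in the 10 fits without 1 embryo and 1.51 to 1.56 in the other 12. Dgkb was chosen by its difference in these same counts, so these fits describe the size of the difference and do not test it. The count of other DGK genes past the threshold, 1 in the fit reported, was 0 without a filter on low counts, with the replicate block, with either covariate (Xist or choroid plexus), in the libraries with Y-linked transcripts and at an FDR of 0.05. It was 3 with edgeR's likelihood ratio test and with DESeq2, which added Dgka (FDR 0.0900 and 0.0465) and Dgki (FDR 0.0843 and 0.0397) and called 6.28% and 9.89% of all genes, and it was 0 to 1 without 1 embryo. Of the pathway genes, 2 were lower with library size only, 1 with the replicate block, the Xist covariate, the choroid plexus covariate, the libraries with Y-linked transcripts or an FDR of 0.05, and 1 to 4 without 1 embryo (1 without Lmx1a-/- embryo 4). The gene left was Chn2, except with the choroid plexus covariate, where it was Plcb1 (log2 fold change -1.003, FDR 0.0831). Pathway genes that were higher numbered 0 with the Xist or choroid plexus covariate, 1 (Plce1) in the libraries with Y-linked transcripts, and 3 to 4 without 1 embryo. Over all genes, 0.143% passed with the Xist covariate and 0.212% with the choroid plexus covariate. Xist was high in wild-type embryos 2 to 5 only. The summed choroid plexus markers overlapped between the genotypes, with a lower mean in the mutants, so both covariates share a part of the genotype difference. Dgkz turned to 0.10 with the choroid plexus covariate. Dgkq turned to -0.060 with that covariate, -0.048 without wild-type embryo 1 and -0.045 without Lmx1a-/- embryo 3, within a range of -0.048 to 0.24 over the fits without 1 embryo. The place of Dgkb per length, 7 in wild-type and 3 in Lmx1a-/- CH, was 4 in wild-type CH with coding length, and 5 and 2 with the longest transcript. It was 6 to 7 and 2 to 3 without 1 embryo, with 6 and 2 found without embryo 4 of each genotype. The cause of these changes was not tested. Same-numbered embryos did not deviate together (correlations of -0.099 to 0.013), so no pairing by number was seen. With the replicate block the log2 fold change of Dgkb was 1.54. The study compared mutants with wild-type littermates, but the labels do not give the litter of an embryo, so litter was not modeled. The depth limits Dgkg most, with at most 16 counts in a library.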
